A study of Homo sapiens with 6 samples.

Results

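The genes described here are weakly expressed genes whose level was lower in cells given a VIM-AS1 vector than in control cells. VIM-AS1 is a long noncoding RNA transcribed from the strand opposite VIM, the gene of the intermediate filament protein vimentin. A gene was included when its mean over the 3 control libraries lay from 5 to 30 normalized counts, when every VIM-AS1 library was below every control library, and when (mean with VIM-AS1 + 1)/(mean of controls + 1) was at most 0.4. By this rule 340 of 25969 genes were members, out of 4002 genes with a control mean from 5 to 30, called the window below. The measured values of this contrast chose the members, so their own levels and calls are a description, and no test on them supports anything.

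The data were RNA sequencing of human prostate cancer cells labelled LNCaP, a line from a lymph node metastasis that normally depends on androgen. The VIM-AS1 group held 3 libraries of cells transfected with a VIM-AS1 overexpression vector. The control group (labelled NC) held 3 libraries of cells with the pcDNA3.1 vector. The labels give no time after transfection and do not say if replicates were grown apart, so a p-value here speaks of the variation among 6 libraries, part of which may be technical. Values are normalized counts, meaning reads divided by 1 size factor per library.

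Long noncoding RNAs are transcripts without a long open reading frame. Many start close to the promoter of a protein-coding gene and run the other way, or lie antisense to it, and most are present at far fewer copies than messenger RNAs and stay in the nucleus. Low read counts of tissue-specific coding genes in a cell line can come from little transcription in every cell or from much in a few. In bulk RNA, fewer cells of a type and less RNA per cell cannot be told apart.

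The libraries held 14762893 to 19889745 reads. VIM-AS1 was at 2197, 2019 and 2763 normalized counts in the VIM-AS1 libraries and at 8.63, 1.22 and 5.53 in the controls, as the labels say. VIM was at 5114, 5061 and 5532 against 5912, 6138 and 7128. Markers of LNCaP cells went partly against the label. KLK3, which encodes prostate-specific antigen, was at 0 in 5 of the 6 libraries and at 1.92 in control library 1. FOLH1, which encodes prostate-specific membrane antigen, was at 0 in the VIM-AS1 libraries and at 3.84, 2.44 and 0 in the controls. HOXB13, a homeobox gene of the prostate, was at 401 to 807. Of 12 listed LNCaP and prostate luminal markers 8 were found, and KLK2, TMPRSS2, STEAP2 and TRPM8 were absent from the values. No gene in the values was at 0 in all 6 libraries, so absence and 0 reads cannot be told apart here. In both groups library 3 lay away from the other two: deviations from the group mean correlated between these libraries at r = 0.84 over 13175 genes, which are not independent replicates. The number and long noncoding share of the members, their calls and median, and a coding median by abundance are therefore also given without 1 or both. Values on GC, length, partners and hosts rest on all 6 libraries.

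The members' promoters are shown first, to let coding members be set beside head-to-head long noncoding ones. Head-to-head here means a coding start on the opposite strand within 1000 bp on either side, so overlapping antisense RNAs are included. Their composition overlaps widely: the quartiles of promoter GC are 56.7% and 68% in coding members and 56.3% and 71.3% in long noncoding ones. RefSeq gives a promoter, from 250 bases before to 50 after the start, for 162 of the 340 members, and for 135 of them its start lies within 1000 bp of the start in the annotation used here. The coding members and the head-to-head long noncoding members of lowest ratio among those 135, 3 of each, are printed on their own strand with each CG dinucleotide in capitals (RefSeq, GRCh38.p14).
GOLGA6L10: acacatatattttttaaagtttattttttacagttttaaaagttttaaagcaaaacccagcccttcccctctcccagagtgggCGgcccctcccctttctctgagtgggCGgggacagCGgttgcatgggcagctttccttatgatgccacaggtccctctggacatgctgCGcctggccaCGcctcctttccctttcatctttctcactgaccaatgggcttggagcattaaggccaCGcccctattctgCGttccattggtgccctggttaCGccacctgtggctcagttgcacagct
ABCA1: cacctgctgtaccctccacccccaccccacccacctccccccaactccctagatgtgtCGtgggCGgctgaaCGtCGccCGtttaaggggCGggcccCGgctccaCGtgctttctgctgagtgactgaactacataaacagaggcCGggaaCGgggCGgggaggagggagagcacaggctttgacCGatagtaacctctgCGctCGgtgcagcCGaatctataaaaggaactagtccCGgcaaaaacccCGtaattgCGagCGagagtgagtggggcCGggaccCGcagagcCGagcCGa
GUCA2B: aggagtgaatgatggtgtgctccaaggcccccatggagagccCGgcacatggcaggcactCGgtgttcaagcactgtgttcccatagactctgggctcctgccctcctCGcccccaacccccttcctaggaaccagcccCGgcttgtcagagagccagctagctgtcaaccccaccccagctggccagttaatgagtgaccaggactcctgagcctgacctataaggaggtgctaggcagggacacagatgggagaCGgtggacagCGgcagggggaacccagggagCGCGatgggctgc
LINC01770: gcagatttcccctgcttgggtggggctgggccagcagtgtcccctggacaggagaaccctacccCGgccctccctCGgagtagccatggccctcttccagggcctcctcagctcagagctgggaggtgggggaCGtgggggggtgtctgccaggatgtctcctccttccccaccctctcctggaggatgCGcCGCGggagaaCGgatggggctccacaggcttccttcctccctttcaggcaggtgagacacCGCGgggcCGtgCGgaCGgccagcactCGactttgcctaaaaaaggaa
BTG1-DT: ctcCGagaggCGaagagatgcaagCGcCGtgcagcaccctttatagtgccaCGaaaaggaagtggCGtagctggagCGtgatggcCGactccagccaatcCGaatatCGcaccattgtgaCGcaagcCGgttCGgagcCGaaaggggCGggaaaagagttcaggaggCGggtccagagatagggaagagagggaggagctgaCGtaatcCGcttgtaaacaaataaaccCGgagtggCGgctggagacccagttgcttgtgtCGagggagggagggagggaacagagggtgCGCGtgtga
CD82-AS1: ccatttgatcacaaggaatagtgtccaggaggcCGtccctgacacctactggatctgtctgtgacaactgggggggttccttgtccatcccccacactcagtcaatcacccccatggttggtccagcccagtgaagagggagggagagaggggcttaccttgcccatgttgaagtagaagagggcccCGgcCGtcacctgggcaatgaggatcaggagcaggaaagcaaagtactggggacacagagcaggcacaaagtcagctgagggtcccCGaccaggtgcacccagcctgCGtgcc
They lie at chr15:82349426-82349725 (minus strand), chr9:104928106-104928405 (minus), chr1:42153160-42153459 (plus), chr1:1434524-1434823 (minus), chr12:92145835-92146134 (plus) and chr11:44605288-44605587 (minus). The windows of GOLGA6L10, ABCA1 and GUCA2B hold 8, 23 and 8 CG, and those of LINC01770, BTG1-DT and CD82-AS1 hold 13, 23 and 5. Over all members with a promoter, the 89 coding ones had a median of 13 CG against 19 in 1180 other coding genes of the window, and 42.7% of them had fewer than 10 CG against 31%. The 73 long noncoding ones had a median of 23 against 21 in 407 others, and 24.7% had fewer than 10 CG against 26.8%. Over all 27305 promoters of the table the median was 14 and 44% had fewer than 10 CG. The letters TATAAA, on either strand, stood in 10.1% of coding members, 8.64% of other coding genes of the window, 5.48% of long noncoding members, 9.09% of other long noncoding RNAs and 12% of all promoters. These shares and those of classes, lengths and positions given below are descriptions without a test, and a match to letters is not a site of binding.

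The rule sets the groups of every member apart, as it does for 737 of the window's 4002 genes (18.4%) before the limit on the ratio. Summed over the 340 members the level was 967, 1109 and 1055 normalized counts in the VIM-AS1 libraries and 4411, 4190 and 4320 in the controls. The median member stood at 2.11, 2.94 and 2.05 against 10.6, 11 and 11.1. The members took 0.0053% to 0.00698% of the reads of a VIM-AS1 library and 0.0215% to 0.0304% of those of a control library. In reads, the median member had 7.5 over the VIM-AS1 libraries together and 34 over the controls, with at most 31 and 93. No control library set the pattern for most members: the highest control value lay in library 1 for 116 members, in library 2 for 106 and in library 3 for 118. For 81 members a single control library held over 50% of the summed control value, and for 58 the lowest control value was at most 1 normalized count above the highest VIM-AS1 value. These levels rest on so few reads that single genes are imprecise, and counting error alone allows up to 3 reads where 0 were seen.

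**Figure D1:**
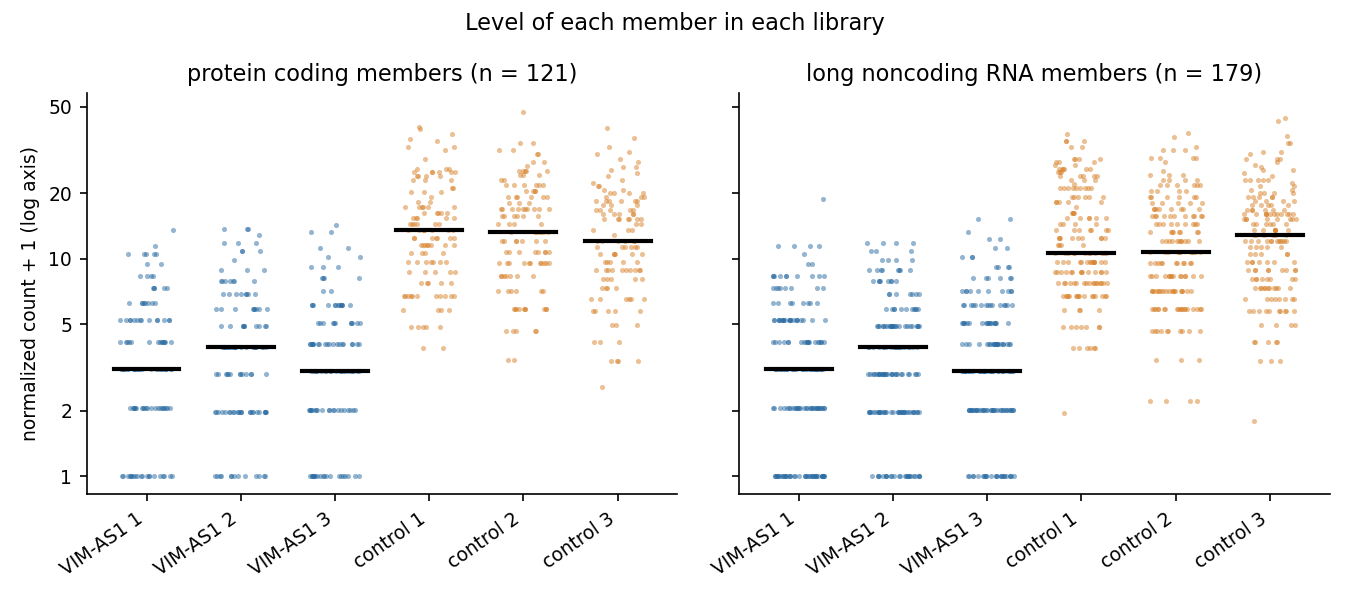
Normalized count + 1 (log axis) of each coding (n = 121) and long noncoding (n = 179) member in each of the 6 libraries, with a bar at the median. The groups of every member are separate because the rule asked for it, and the medians of coding members stand at 2.11, 2.94 and 2.05 with VIM-AS1 against 12.5, 12.2 and 11.1 in the controls.

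Just inside the ratio of 0.4 were LCMT1-AS1, TMEM225B and GRB14, and just outside were PITRM1-AS1, HOXC12 and LDLRAD2. HOXC12, a homeobox gene, lay outside at 7.37, 8.82 and 6.14 against 25.9, 14.7 and 19.7 with no overlap. At the lower limit of abundance MTUS1-DT, MIR1302-9HG and MYBPHL stood inside with control means from 5.01 to 5.04, and CKS1BP1, PHEX and TEX38 outside with 4.93 to 4.96. At the upper limit PRTN3, DNMT3L and C4B stood inside with 28.4 to 29.6, and TSKU-AS1, PADI3 and FAM13C outside with 30.3 to 30.5. With no limit on abundance 708 genes met the other conditions, 212 of them under 5 and 156 over 30. The rule turned round, with the window on the VIM-AS1 mean and the controls lower, found 62 genes of 3736.

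No member passed limma on log2(value + 1) over 20927 genes at an adjusted p of 0.05, where 0.00956% of all genes were called lower. At an unadjusted p under 0.05, 337 members were lower, and 7.69% of all genes. With the replicate number as a block, which the pairing of same-numbered libraries allows, 252 members were called lower (background 10.8%), and with a term for the third libraries 222 (7.94%). With that term the count was 3 when VIM-AS1 library 3 was left out and 7 without control library 3. In those 2 fits the term fitted the remaining library 3 exactly, so the contrast rested on libraries 1 and 2 of each group. Leaving out 1 of the other libraries kept both libraries numbered 3 in the contrast and gave 111 to 145. The designs differ, so these counts do not show the effect of a single library. The share of all genes called lower was 0.691% and 1.22% in the fits without a library 3 and 5.32% to 8.01% in the others, so it was smaller as well. edgeR called 0 without and 179 with the term (background 0.00956% and 8.64%, with 302 at an unadjusted p under 0.05 without it), and DESeq2 called 15 (1.05%). The members' median log2 fold change was -1.80, beside -0.02 over all genes tested, and the rule fixes that it is low.

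Libraries that the choice did not use carried part of the difference. The rule was applied to the pairs numbered 1 to 3 with 1 pair left out, and the chosen genes were read in the left-out pair. Of 488 genes chosen without pair 1, 77.3% were lower with VIM-AS1 in that pair (95% Wilson interval 73.3% to 80.8%), against 64.1% of all genes in the same window. The median log2((VIM-AS1 + 1)/(control + 1)) in the left-out pair was -0.97, against -1.73 in the libraries that chose them and -0.35 over the window. Without pair 2, 584 genes were chosen, of which 70.7% were lower (window 57.6%), with a median of -0.76 against -1.78 and -0.22. Without pair 3, 530 genes were chosen, of which 78.9% were lower (window 63.3%), with a median of -0.91 against -1.78 and -0.32. So the held-out difference was smaller than the one that chose the genes in each pair, and further below 0 than that of the window. Genes in a library share its scaling and are not replicates, and 1 library against 1 gives no test. Genes chosen by the reversed rule were higher in the left-out pair in 57.8%, 69.2% and 61.5%, with medians of 0.13, 0.73 and 0.49. In their own window, set on the VIM-AS1 mean, 33.5%, 40.3% and 35.9% were higher, with medians of -0.41, -0.26 and -0.32, so the chosen genes exceeded their window by more percentage points than in the rule itself.

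By class, coding genes and long noncoding RNAs were below their window in every left-out pair. Chosen coding genes had held-out medians of -0.997, -0.85 and -0.97, against -0.30, -0.17 and -0.25 in coding genes of the window. Chosen long noncoding RNAs had -1.05, -0.85 and -0.85, against -0.55, -0.29 and -0.47. Chosen pseudogenes had -0.51, -0.24 and -0.92, against 0, 0 and -0.18. Differences between classes were not tested.

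**Figure D2:**
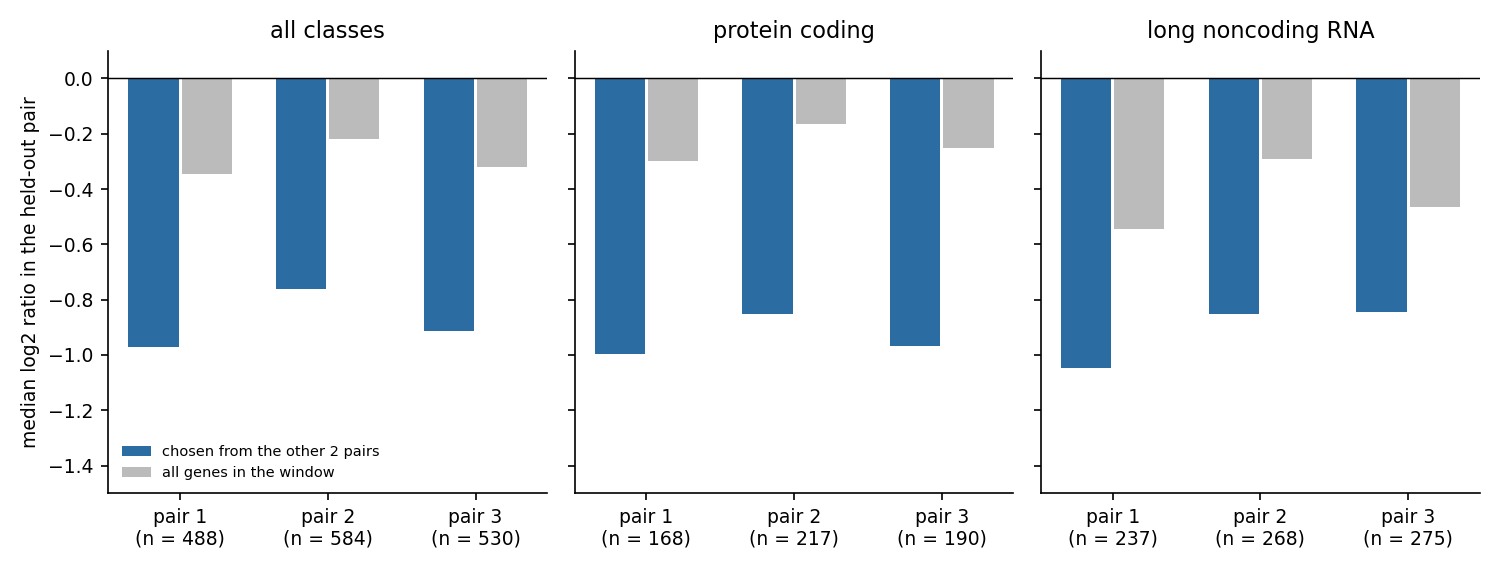
Median log2((VIM-AS1 + 1)/(control + 1)) in the pair that took no part in the choice, for the chosen genes (blue) and all genes of the window (grey), by class. Over all classes the chosen genes reach -0.97, -0.76 and -0.91, and the window -0.35, -0.22 and -0.32.

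Long noncoding RNAs were the largest class of members. They numbered 179 of 340 (52.6%, 95% Wilson interval 47.3% to 57.9%), against 35.9% of the 3662 other genes in the window and 16.1% of the 62 genes of the reversed rule. Of these, 89 were annotated as antisense and 73 as lincRNA, RNAs between genes. Protein-coding genes numbered 121 (35.6%, against 43.7% of the other genes in the window) and pseudogenes 28 (8.24% against 15.1%), with 6 small RNAs and 6 genes of other classes. Put the other way, 12% of the long noncoding RNAs in the window were members, 7.03% of the coding genes and 4.83% of the pseudogenes. RNAs with a LINC name were members in 29 of 128 cases (22.7%), and RNAs named as antisense, divergent or intronic transcripts of a gene in 56 of 456 (12.3%), where 8.5% of the whole window were. With the third libraries left out, 530 genes met the rule and 51.9% of them were long noncoding. Under the other settings tried, the reversed rule aside, the share ran from 47.8% to 54.2%.

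The lower level of long noncoding RNAs was not limited to the abundance of the rule. With members left out, their median log2 fold change was -0.49 at a mean of 10 to 30 normalized counts, -0.46 at 30 to 100 and -0.44 at 100 to 1000, where 81.6% of 245 were below 0. In the same 3 steps coding genes had -0.25, -0.13 and 0.08, of which the last was 0 without VIM-AS1 library 3 and 0.14 without control library 3, and pseudogenes -0.07 in the first and close to 0 in the others. At 100 to 1000 the same-numbered pairs gave -0.49, -0.40 and -0.40 for long noncoding RNAs and 0.04, 0.08 and 0.10 for coding genes. Groups did not overlap, with VIM-AS1 lower, in 110 of those 245 long noncoding RNAs (44.9%) and in 6.02% of 6084 coding genes, and in 10.3% of all genes tested. Library size scaling moved the median of all genes tested from -0.02 to -0.08 and these 2 medians to -0.50 and 0.02. The share of reads in long noncoding RNAs was 0.724%, 0.685% and 0.854% with VIM-AS1 and 1.12%, 0.846% and 1.18% in the controls, and the groups overlapped. Coding genes took 97.5% of the reads in every VIM-AS1 library and 96.7% to 97.0% in the controls. Mitochondrially encoded genes took 5.57% to 7.06% against 8.74% to 14.3%. The coding and mitochondrial shares thus did not overlap between groups. Each had an exact permutation p of 0.1, the smallest for 3 against 3, and 0.238 after Benjamini-Hochberg adjustment. The part of the libraries' make-up in the lower level of long noncoding RNAs was not tested.

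**Figure D3:**
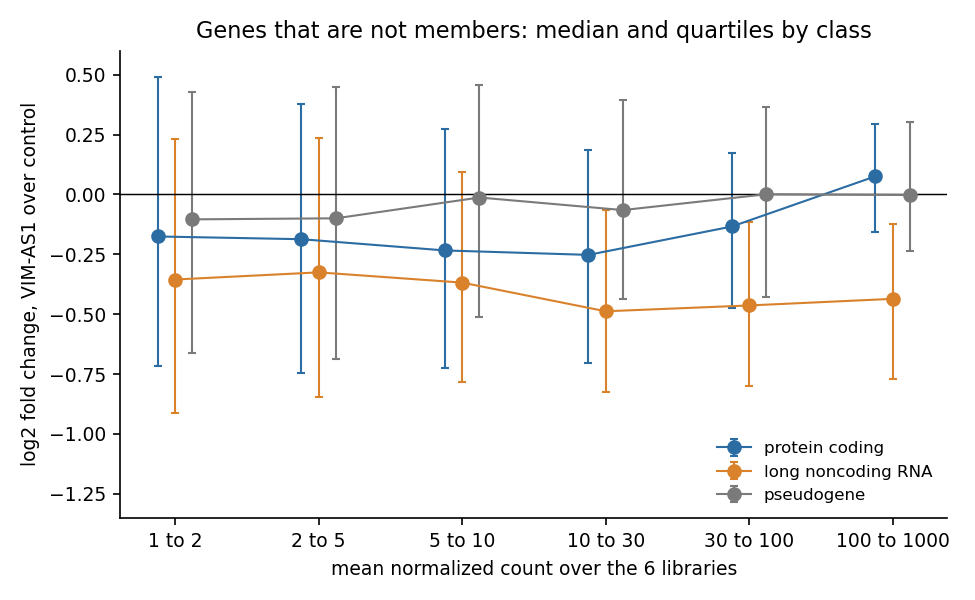
Median log2 fold change (points) and quartiles (bars) of genes that are not members, by mean normalized count over the 6 libraries and by class. Long noncoding RNAs lie lowest at every level shown, from -0.33 to -0.49, and coding genes reach 0.08 at 100 to 1000. Genes with a mean of 1000 or more, where coding genes had 0.20, are not shown.

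Coding members had a higher median GC content and a shorter median length than other coding genes of the window. The median exonic GC content was 58.2% against 50%, and the median exonic length 3287 bp against 4072 bp, with a median gene span of 15504 bp against 27614 bp. Of the window's coding genes with 60% GC or more, 45 of 304 (14.8%) were members, and of those from 55% to 60%, 39 of 325 (12%). In the 4 lower classes of GC the share ran from 1.93% to 4.48%. The genes of the reversed rule had a coding median of 49.8% GC. The coding window's median log2 fold change was -0.60 at 60% GC or more and -0.22 under 40%, and after each library's trends with GC and length were removed it was -0.49 and -0.20. Long noncoding members had medians close to those of the other long noncoding RNAs, with 49.4% GC against 49.3% and 1209 bp against 1234 bp. The mean GC of the reads was 53.7%, 54.0% and 52.3% with VIM-AS1 and 53.5%, 53.4% and 51.8% in the controls, so it overlapped between groups and was lowest in library 3 of each. Its part in the members' GC was not tested.

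**Figure D4:**
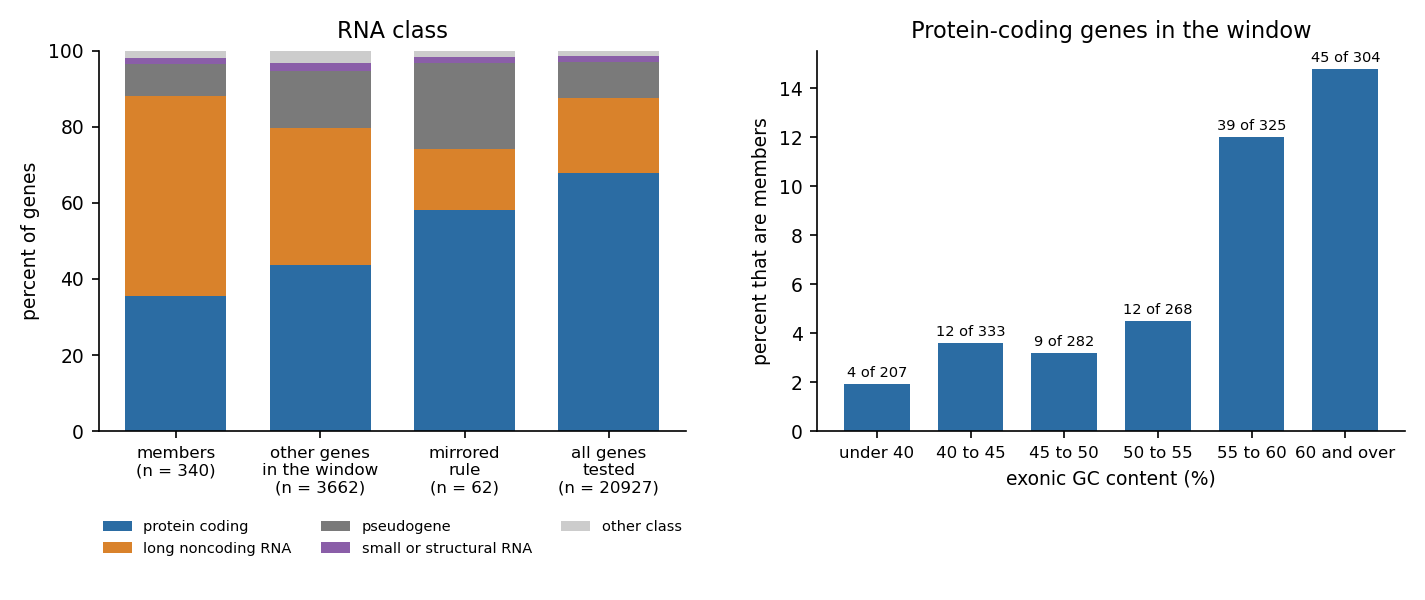
Left, share of each RNA class (percent of genes) among members, other genes of the window, genes of the reversed rule and all genes tested. Right, percent of the window's coding genes that are members by exonic GC content, with the counts above the bars, reaching 14.8% at 60% and over.

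The coding members of lowest ratio had 0 or 1 read in most VIM-AS1 libraries. FOXS1 (chromosome 20, 31844301 to 31845619, minus strand, GRCh38), a forkhead transcription factor gene, had 0 in every VIM-AS1 library and 14.4, 15.9 and 3.16 in the controls, at least 10.9-fold lower with a floor of 3 reads over the group. NKAIN4 (chromosome 20, 63240784 to 63272694, minus), whose product binds the sodium pump, was at 1.05, 2.94 and 2.05 against 36.5, 29.3 and 19.0. It was the member closest to the threshold of limma without a block (log2 fold change -3.28 ± 0.49 SE, adjusted p = 0.0563). CDX1, a homeobox gene of intestinal identity, was at 0, 0.980 and 0 against 9.59, 9.77 and 7.90, so its controls lay close together. GUCA2B, which encodes the gut hormone uroguanylin, was at 0, 0.980 and 0 against 11.5, 6.11 and 7.90. FAM178B was at 0, 0.980 and 1.02 against 15.3, 13.4 and 7.90. ABCA1, the exporter of cellular cholesterol, had 1.05, 0 and 0 against 3.84, 4.89 and 17.4, and its control level rested mostly on library 3. GOLGA6L10 was at 0 in every VIM-AS1 library and at 8.63, 3.67 and 7.11 in the controls, but it belongs to a golgin family of near-identical copies whose reads counting could split.

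The coding members of highest control mean kept reads in every VIM-AS1 library. PRTN3, which encodes the neutrophil protease proteinase 3, was at 9.48, 12.7 and 5.12 against 30.7, 30.5 and 27.6. ELANE, the gene of neutrophil elastase, lies 2838 bp from it on chromosome 19 and was also a member, at 2.11, 2.94 and 1.02 against 10.6, 12.2 and 21.3. Markers listed for myeloid cells summed to 26.3, 33.3 and 33.8 with VIM-AS1 and 57.6, 90.4 and 51.3 in the controls over 7 genes, led by CSF1R and CD14, while the defining markers TYROBP and FCER1G were at or near 0. TYROBP was at 0 in every library but control 3, and FCER1G at 0 in the VIM-AS1 libraries and at 1.92, 2.44 and 0.790 in the controls. ITGAM of the same list was higher without overlap, at 6.32, 5.88 and 3.07 against 0, 0 and 0.790. BDKRB2, the bradykinin B2 receptor gene, was at 5.27, 5.88 and 3.07 against 24.0, 33.0 and 25.3. C4B, a complement gene with a near-identical copy, was at 2.11, 12.7 and 5.12 against 23.0, 33.0 and 29.2. NHERF4, which encodes a scaffold with PDZ domains, was at 7.37, 3.92 and 6.14 against 39.3, 26.9 and 14.2. DNMT3L, a cofactor of DNA methylation in germ cells, was at 12.6, 10.8 and 8.19 against 24.9, 46.4 and 16.6, a wide spread among the controls.

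Genes were sorted into families by the pattern of their symbols, so each list holds only part of its family. Counts of listed genes, here and in the next paragraph, are of those in the window unless stated. Of 30 genes in the list of secreted signals in the window 4 were members, among them NTF4 (3.16, 0 and 1.02 against 7.67, 14.7 and 11.1), a neurotrophin, CCL21, a chemokine that draws lymphocytes to lymph nodes (4.21, 2.94 and 4.09 against 12.5, 11 and 15.8), and FGF17 (2.11, 5.88 and 5.12 against 17.3, 11 and 12.6), a fibroblast growth factor of the developing brain, with SEMA4A, a semaphorin, as the last. The signal genes THPO and GUCA2B are members outside that list. Of 19 listed receptor genes for such signals 2 were members. ERBB4, a receptor of the epidermal growth factor receptor family, was at 2.11, 2.94 and 0 against 11.5, 15.9 and 18.2. AMHR2, the receptor of anti-Müllerian hormone, was at 2.11, 1.96 and 1.02 against 14.4, 14.7 and 6.32. Of 32 listed genes for G protein-coupled receptors 3 were members: GPR132, the nociceptin receptor gene OPRL1 and GPR35, and BDKRB2 is a member outside the list. GPR132 was at 3.16, 1.96 and 3.07 against 14.4, 15.9 and 16.6, with both groups narrow. OPRL1 was at 2.11, 7.84 and 3.07 against 24.9, 20.8 and 15.8 and GPR35 at 2.11, 1.96 and 3.07 against 11.5, 8.55 and 15.0. The shares of these lists, 13.3%, 10.5% and 9.38%, stand beside 8.5% of all genes in the window, and with so few members no list is set apart by them.

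The other lists of coding genes gave at most 3 members each. Among 42 solute carriers of the window 3 were members: SLC1A2 (4.21, 2.94 and 2.05 against 13.4, 15.9 and 15.8), the main glutamate transporter of astrocytes, SLC47A2, which exports organic cations in the kidney (6.32, 4.90 and 2.05 against 24.0, 11 and 11.1), and the amino acid transporter gene SLC7A7 (7.37, 10.8 and 3.07 against 22.1, 20.8 and 26.9). SLC1A2 and SLC7A7 had close controls, whereas those of SLC47A2 ranged from 11 to 24.0. Of 99 zinc finger genes, ZNF501 and ZNF345 were members (2.02%). No member was found among 20 listed homeobox genes of the window, a list that does not hold the members CDX1 and ALX4. Over all levels 17 of 86 listed homeobox genes tested were lower without overlap and 3 higher, beside 10.3% and 9.5% of all genes tested. No member was found either among 25 collagen, laminin and matrix genes, 14 neurotransmitter receptors and 15 small RNA host genes. The developmental factors FOXS1 and GLI1, the end point of Hedgehog signalling (4.21, 9.80 and 3.07 against 11.5, 24.4 and 17.4), were 2 of 16. The cadherins CDH16, of the kidney (2.11, 2.94 and 0 against 7.67, 18.3 and 7.11), and CDH23, of the hair cell tip link (2.11, 2.94 and 0 against 5.76, 9.77 and 10.3), were 2 of 14, and the calpain genes CAPN11 and CAPN12 2 of 16 listed genes of proteases and their inhibitors, a list without the members PRTN3 and ELANE. PDE4C, a phosphodiesterase of cyclic AMP, was a member among genes of enzymes in signalling (1.05, 2.94 and 3.07 against 13.4, 7.33 and 11.8). CD70, TRIM73 and the antiviral deaminase gene APOBEC3H were 3 of 26 immune genes, of which TRIM73 has near-identical copies. CD70, the ligand of CD27 on lymphocytes, was at 2.11, 1.96 and 2.05 against 13.4, 9.77 and 4.74, and APOBEC3H at 0, 5.88 and 1.02 against 12.5, 6.11 and 7.11. TTC9B, ODAD1 and ARMC12 were 3 of 57 genes of motors and cilia, and 89 of the 121 coding members were in no list. Single members came from ABC transporters (ABCA1), ion channels (BEST4), keratins and claudins (KRT39) and read-through genes (BORCS8-MEF2B).

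By the tissue they are best known from, coding members were mixed. The grouping in this paragraph was made after the members were known and has no count or test. Muscle genes included MYL3, a myosin light chain of the heart (3.16, 6.86 and 5.12 against 13.4, 23.2 and 12.6), ACTN3, of fast fibres (3.16, 3.92 and 4.09 against 16.3, 17.1 and 8.69), and LMOD1, of smooth muscle. Liver genes included AGXT, which detoxifies glyoxylate (0, 1.96 and 0 against 9.59, 6.11 and 5.53), FTCD and THPO, the gene of thrombopoietin (5.27, 6.86 and 5.12 against 27.8, 19.5 and 17.4). Nerve genes included PRPH, the filament protein peripherin (4.21, 2.94 and 2.05 against 12.5, 18.3 and 19.7), LGI4, needed for myelination in nerves (0, 0 and 0 against 4.80, 2.44 and 7.90), and PACSIN1. Gland and surface genes included the aquaporin gene AQP5 (8.43, 2.94 and 4.09 against 19.2, 26.9 and 19.0) and BPIFB1, of airways. TSKS of the testis and CRYGS, a crystallin of the lens, were also members.

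The sums of several marker lists of other cell types were lower with VIM-AS1 as well. Of 16 genes of the 15 cell lists that lie in the window 1 was a member (6.25%, near the 8.5% of the whole window). This was TP63, a factor of basal epithelium, at 6.32, 2.94 and 12.3 against 17.3, 20.8 and 38.7. Basal markers without it summed to 20726, 22000 and 12529 against 16284, 17090 and 9756 and overlapped, with KRT17 making up most of the sum and KRT5 at 0 to 4.21. Within that list the keratins KRT16, at 52.7, 47.0 and 36.8 against 131, 114 and 83.7, and KRT15, at 16.4 to 20.6 against 44.2 to 64.7, were lower without overlap, as TP63 was. The sums of fibroblast markers, at 1797 to 2563 against 2877 to 3724, and of myeloid markers were lower without overlap. So were those of muscle markers, at 181 to 233 against 318 to 456, and of neuronal markers, at 150 to 186 against 195 to 334. Singly, only MB and DES of the muscle list and SYP and RBFOX3 of the neuronal list were lower without overlap. No gene of these lists was higher without overlap, but ACTA1 and SNAP25 had higher means, 7.14 against 5.36 and 14.1 against 7.75. The sums of germ cell markers (1176 to 1473 against 982 to 1108) and of markers of the prostate lines PC-3 and DU145 (24843 to 33703 against 18819 to 22574) were higher without overlap. Those of T cell, B cell, erythroid, endothelial, neuroendocrine, hepatocyte, adipocyte and prostate luminal lists overlapped. Among defining markers, LUM was at 0 in 5 libraries and COL1A2 in 5, while PDGFRB and COL1A1 made up most of the fibroblast sum. Fibroblast markers went both ways, with DCN at 90.6, 91.1 and 119 against 208, 208 and 342 and THY1 at 16.9, 14.7 and 14.3 against 3.84, 7.33 and 0.790. The smallest two-sided exact permutation p for 3 against 3 is 0.1, and 0.238 after Benjamini-Hochberg adjustment over 31 library measures. The part of other cells in the members' levels was not tested.

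Long noncoding members are described here where they carry a symbol other than a clone name, which leaves out AC004080.4 and AC104785.1, of lower ratio. LINC01833 was at 0, 0 and 1.02 against 4.80, 17.1 and 3.16. LINC02254 was at 0 in every VIM-AS1 library and at 0.959, 1.22 and 15.0 in the controls, so its level came from control library 3. LINC01770 (chromosome 1, 1430539 to 1434573, minus strand) was at 0, 0.980 and 1.02 against 7.67, 6.11 and 16.6. More even were SYN3-AS1, antisense within SYN3, at 4.21, 2.94 and 3.07 against 25.9, 18.3 and 33.2, and LINC03034, at 2.11, 1.96 and 6.14 against 18.2, 30.5 and 33.2. BRWD1-AS2 was at 17.9, 10.8 and 2.05 against 24.9, 35.4 and 21.3, a broad range in both groups. PCAT6, an RNA known from prostate cancer, was at 4.21, 0.980 and 7.16 against 31.7, 28.1 and 15.0. PCAT6 was picked after its values were seen.

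Pseudogenes and small RNAs made up the rest. AC018714.1, known by a clone name, had the lowest ratio among pseudogenes, at 0, 0.980 and 0 against 4.80, 2.44 and 17.4. CSPG4BP and ACTG1P14, the next, were at 0 in every VIM-AS1 library and at 11.5, 1.22 and 3.95 and at 1.92, 8.55 and 5.53 in the controls. RNF2P1 was at 0, 0 and 2.05 against 4.80, 6.11 and 10.3. Reads of processed pseudogenes such as ACTG1P14 and RNF2P1 resemble those of the parent gene, so their counts are uncertain. Among the 6 small RNAs were the mitochondrial transfer RNA gene MT-TD, at 2.11, 0 and 7.16 against 10.6, 9.77 and 14.2, the small nuclear RNA RNU6-195P, at 2.11, 0 and 1.02 against 4.80, 3.67 and 9.48, and MIR3197, at 1.05, 1.96 and 2.05 against 11.5, 4.89 and 4.74. Counts over such short genes do not measure the mature small RNA. The 6 genes of other classes were annotated as still to be experimentally examined.

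The coding genes that share a start region with noncoding members mostly had similar levels in both groups. Within 1000 bp and on the opposite strand, 77 of the 219 noncoding members had a coding partner (35.2%, against 28.1% of other noncoding genes of the window). The start could lie on either side, so some members overlap their partner, as CD82-AS1 does within CD82. Among long noncoding RNAs alone the shares were 41.3% and 39.2%. The partners' median log2 fold change was 0.06, with 33 of 77 below 0, and 0.08 for the partners of the others. Groups did not overlap in 5 partners that were lower and 6 that were higher, beside 10.3% and 9.5% of all genes tested. BTG1-DT, whose promoter is printed above, was at 0, 1.96 and 0 against 5.76, 4.89 and 17.4, while BTG1, an antiproliferative gene that starts 324 bp away, was at 615, 615 and 647 against 670, 711 and 760. BTG1 was thus lower without overlap, but by -0.19 on the log2 scale (adjusted p = 0.244 in limma with the term for the third libraries). CD82-AS1 was at 0, 2.94 and 2.05 against 17.3, 11 and 12.6, and its partner CD82, a tetraspanin gene, at 607, 628 and 452 against 1032, 728 and 418, with overlap. NUDT16-DT was at 1.05, 0.980 and 1.02 against 12.5, 3.67 and 7.90, whereas its partner NUDT16 was at 1122, 1257 and 1116 against 820, 760 and 608, and NUDT16 rose by 0.68 on the log2 scale (adjusted p = 0.000211 in the same fit). With the term, 6 partners fell and 11 rose, beside 7.94% and 11.5% of all genes tested. LINC01770 was among the members whose partner fell, since VWA1, 288 bp away, was also lower, at 63.2, 59.8 and 38.9 against 121, 122 and 93.2 (log2 fold change -1.06, adjusted p = 0.00103 in that limma fit).

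**Figure D5:**
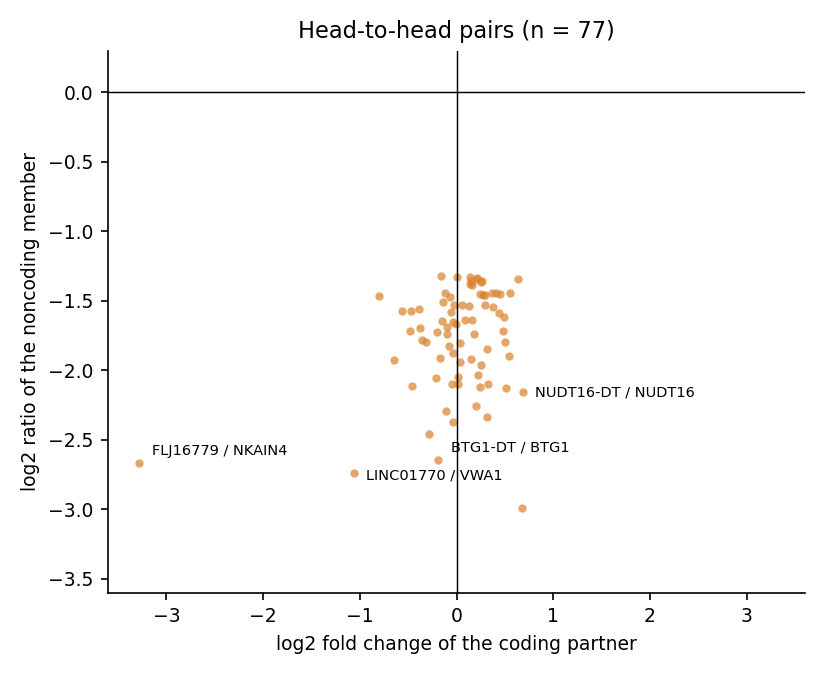
Log2 ratio of each noncoding member against the log2 fold change of its coding partner, for 77 head-to-head pairs, some of which overlap. The members lie low by the rule, and the partners scatter around 0 with a median of 0.06, with NKAIN4, which is a member, and VWA1 lowest.

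The position of noncoding members within coding genes was compared with that of other noncoding genes of the window. At least 50% of the exonic bases fell within the span of a coding gene for 31.3% of long noncoding members, against 49.5% of other long noncoding RNAs of the window. The 59 coding hosts tested of all noncoding members had a median log2 fold change of -0.01, with 31 below 0, against 0.10 for the hosts of the others. Groups did not overlap in 8 hosts that were lower (13.6%) and 3 that were higher (5.08%). Among hosts of the others these shares were 6.04% and 14.4%, and the difference was not tested. RNAs annotated as sense intronic numbered 8 of 179, and 6.72% of the sense intronic RNAs of the window were members. Single-exon genes were 29.1% of long noncoding members and 27.7% of the others. Of 10 RNAs listed as retained in the nucleus 2 lie in the window, and neither is a member, a number too small to read. The place of these RNAs in the cell was not measured here, and the list may hold cytoplasmic ones, NORAD and GAS5 among them. NEAT1, which builds paraspeckles, was at 2262, 1814 and 3073 against 7711, 3366 and 7964, and MALAT1, a nuclear speckle RNA, at 1580, 726 and 1966 against 1637, 792 and 3400. Of the 10, only NEAT1 was lower without overlap and none was higher. Only NORAD had a higher mean with VIM-AS1, 2473 against 2079. The sum of the list was 10643, 9645 and 13580 against 17542, 11012 and 19616 and overlapped. The share of reads in sense intronic RNAs was 0.0157% to 0.0214% with VIM-AS1 and 0.0196% to 0.0328% in the controls and overlapped. The sources do not state which parts of a gene were counted, and reads within introns have no values of their own. The part of unprocessed RNA was therefore not tested.

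Some members lay beside or across each other, so that they are not independent. Within 20 kb of another member were 9 pairs, and 4 of these overlap on opposite strands: NKAIN4 with FLJ16779, LINC02352 with LINC03034, LINC01979 with LINC01978, and PELP1-DT with AC091153.1. FLJ16779 lies within NKAIN4 and was at 0 in every VIM-AS1 library and at 12.5, 1.22 and 2.37 in the controls. Neither the strand marking of the kit nor the strand setting of the counting is stated, so reads of such overlapping genes cannot be told apart. By chromosome, members were 15.1% of the window's genes on chromosome 20 (16 of 106), 11.7% on chromosome 3 (21 of 180) and 11.3% on chromosome 19 (33 of 292). On X they were 4.42% (5 of 113), with no test made.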

How the data were processed

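RNA-seq libraries (6, 3 per group) used 1.3 µg of RNA each, per the labels. The submitters' processing notes name fastp, HISAT2, featureCounts and hg38. The sources used here do not state versions, the annotation or the strand setting. The deposited values are a signal per gene: counts divided by 1 factor per library. Whole reads were recovered from them for 100% of values within 0.01 read, and edgeR on these reads called 2 genes higher and 2 lower.

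Gene classes, lengths and GC came from GENCODE 29 on GRCh38, which holds all 25969 identifiers, 99.3% of them with a symbol. limma 3.58.1 (R 4.3.3) with an intensity trend was fitted to log2(value + 1) for the 20927 genes whose mean reached 1 (two-sided, Benjamini-Hochberg at 0.05). Fold changes on this scale understate those of low genes. Alternatives were the replicate block, a term for the third libraries, TMM and library size scaling, other filters and pseudocounts, removal of GC and length trends, edgeR 4.0.16, DESeq2 1.42.0 and each library left out. Deviations of same-numbered libraries correlated at 0.32, 0.72 and 0.84 over 13175 genes, so the numbers were taken to pair the libraries. In the first pair VIM-AS1 library 1 correlated more with control library 2, at 0.42. The fits were tested on simulated data.

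Members and lists were chosen with earlier results of these data known. Among genes with a symbol other than a clone name, those named were the 10 members of lowest ratio, the 8 of highest control mean, up to 3 of each class or family, those at the limits of the rule and any cell type marker. Other names were chosen after their values were seen. Some results are not reported here.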

Additional observations from a re-analysis of the deposited data

How the results depend on the processing

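The number of genes meeting the rule was 340. It moved by over 1.5 times with a window of 10 to 30 (180), a ratio limit of 0.33 (203) or 0.5 (518), the rule reversed (62), and the third libraries of both groups left out (530, an alternative added after the data were seen). Leaving out 1 library gave 402 to 500. TMM and library size scaling gave 344 and 363 genes, of which 336 and 315 were among the 340.

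The count of members called lower by limma was 0 and stayed 0 under 11 of 18 alternatives. It was 252 with the replicate block, 222 with the term for the third libraries, 179 in edgeR with that term, 15 in DESeq2, and 100 and 187 after removal of GC and length trends without and with the term, where 4.76% and 9.66% of all genes were called lower. Leaving out 1 library gave 0 to 2. With the term, leaving out 1 library numbered 1 or 2 gave 111 to 145. Leaving out a library 3 gave 3 and 7, where only libraries 1 and 2 carried the contrast. TMM and library size scaling with the term gave 219 and 175. The blocked fit takes the pairing of the replicate numbers as given.

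The members' median log2 fold change of -1.80 was -2.29 with a pseudocount of 0.1 and lay between -1.73 and -1.86 under 11 other alternatives. The share of long noncoding RNAs was 16.7 percentage points above that of the other genes in the window and 36.5 above that of the reversed rule. The GC difference of coding members, 8.2 percentage points over exons, was 0.7 in promoters. The causes of these changes were not tested. With a median of 34 control reads per member, depth limits every single gene. The Wilson intervals treat genes as independent draws, which they are not, and do not cover variation among libraries.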
